A study of Tetranychus urticae with 4 samples.

Results

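In adult female spider mites, 107 of the 18020 listed genes met set limits on level and on front-body ratio and differed at least 2-fold between pools of intact animals. Most of them ran low in the same pool. The genes were chosen by their measured values in these libraries. A member had a mean of at least 5 CPM (counts scaled to a library of 1000000 reads) in whole bodies, and its highest whole-body CPM was at least 2 times its lowest. Its ratio of proterosoma to mean whole-body CPM, with 0.1 CPM added to each, was above 1/16 and at most 8, and it was not at 500 CPM or more in all 4 libraries. The 7943 genes that met the limits on level, ratio and abundance, whatever their spread, are called eligible. They include the members, which made up 1.35% of them, and serve as the comparison.

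Tetranychus urticae is a plant-feeding mite that pierces leaf cells and sucks out their contents. The proterosoma, the front of its body, carries the mouthparts and houses the salivary glands and the fused central nervous mass, while the ovary, the developing eggs and most of the gut fill the hind body. RNA from a pool of whole females blends all of these tissues, so a pool's level of a gene reflects both the make-up of the pooled animals and the amount of RNA per cell. Fewer cells of a type and less RNA per cell cannot be told apart in such libraries.

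All libraries came from adult females of the London strain. Whole-body replicates 1, 2 and 3 were each made from 100 intact females, and 1 library came from the dissected proterosoma of 250 females. The sources used here give neither age, host plant nor rearing, nor whether the whole-body pools came from separate cultures, so the spread between them may be technical. Replicate 1 was the deepest whole-body library, with 23647775 reads counted, against 12356237 for replicate 2, 11630954 for replicate 3 and 19667380 for the proterosoma library.

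No identifier could be paired with a gene name or product, since none was found in the reference table and the deposited files do not pair them. The members are therefore described by identifier, by the scaffold number and serial number that the identifier contains, and by their values. No role is given for any of them, and no sequence is shown.

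Most members lay close to the spread limit that chose them. The spread, the highest over the lowest whole-body CPM, had a median of 2.31 and ranged from 2.00 to 8.39 among members. It had a median of 1.14 among eligible genes. A spread under 2.5 was found in 68 members and one of at least 3 in 18. An exact 95% interval for the ratio of the highest to the lowest library (Clopper-Pearson on the reads of that pair, counting error only) had a lower bound above 1.5 for 101 of the 107 members and above 2 for 39, and the lowest bound was 1.41. Choosing genes for their spread raises these bounds. The fewest reads of a member in any whole-body library were 15, and 15 members had under 50 reads in at least 1 of these libraries.

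The values on either side of each limit were close. The member nearest the spread limit stood at 2.0004, and the nearest eligible gene outside it at 1.997. A spread between 1.9 and 2 was found in 29 eligible genes, about as many as the 30 members with a spread of up to 2.1. At the limit on level, the last member had a mean of 5.03 CPM and the first gene left out one of 4.99999. At the upper limit on the ratio the values were 7.98 inside and 8.11 outside, and at the lower limit 0.0639 inside and 0.0576 outside. In all, 174 genes that averaged 5 CPM or more spread at least 2-fold, and the ratio limits left out 53 genes that were higher in the proterosoma library and 14 that were lower. The limit on abundance left out 0.

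Members were mostly genes of modest level. Their mean whole-body CPM had a median of 13.8, against 41.8 for eligible genes. Members were 37 of the 986 eligible genes at 5 to 10 CPM (3.75%), 27 of 1251 at 10 to 20 CPM (2.16%) and 24 of 2211 at 20 to 50 CPM (1.09%). Above that they were 8 of 1694 genes at 50 to 100 CPM (0.472%) and 11 of 1801 at 100 CPM or more (0.611%). The share thus fell with level up to 100 CPM and was slightly higher again above it. Together the members took 0.482%, 0.306% and 0.527% of the reads of whole-body replicates 1, 2 and 3, and 0.546% of the proterosoma reads. A single gene, tetur20g00200, dominates the last share: the other 106 members took 0.426%, 0.238% and 0.506% in replicates 1, 2 and 3 and 0.160% in the proterosoma library.

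Whole-body replicate 2 was the library that most often stood apart. It held the lowest value for 86 of the 107 members (80.4%), against 31.7% of eligible genes. Replicate 3 held the highest value for 71 members (66.4%), against 21.1% of eligible genes. The order replicate 2, replicate 1, replicate 3 from low to high was found in 62 members (57.9%) and in 13.4% of eligible genes (57.9% and 17.9% with TMM scaling, which adjusts library sizes for composition). The commonest order among eligible genes was the one with replicate 3 lowest, replicate 2 in the middle and replicate 1 highest (34.8%), which only 4 members followed. These shares describe genes chosen by the spread of the same 3 libraries and are given without a test.

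To say which pool differed for each gene, the odd library was taken as the highest or lowest one, whichever lay farther on the log2 scale from the middle library. Replicate 2 was the odd library and low for 63 members (58.9%), against 15.6% of eligible genes. Replicate 3 was odd and high for 25 members (23.4%), against 10.1% of eligible genes. The other 19 members were divided among replicate 1 high (6), replicate 1 low (4), replicate 2 high (3) and replicate 3 low (6). Among eligible genes, replicate 3 low was the largest class, at 33.1%.

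**Figure D1:**
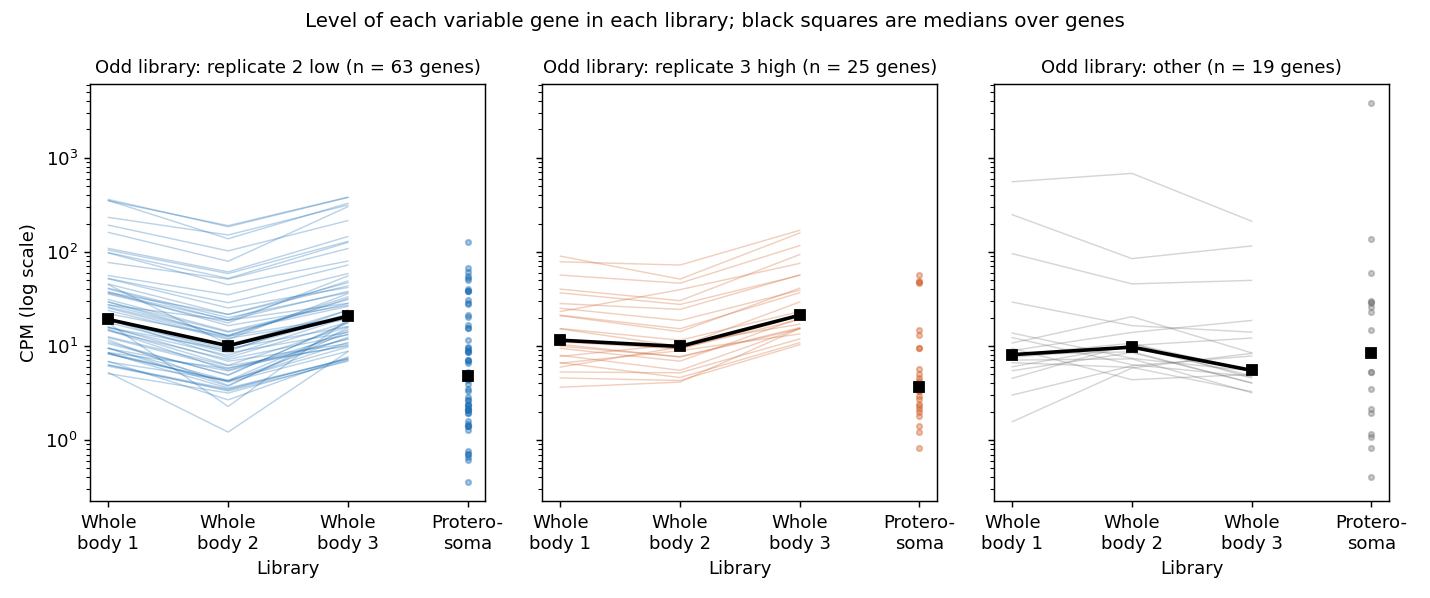
Level of every member in CPM (log scale) in the 3 whole-body libraries, joined by lines, and in the proterosoma library (points), with panels by odd library and black squares for medians over genes. In the panel of 63 genes, replicate 2 lies below replicates 1 and 3, and in the panel of 25 genes, replicate 3 lies above the other whole-body libraries.

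For the 63 members low in replicate 2, the median levels were 19.1, 10.04 and 20.7 CPM in replicates 1, 2 and 3. The other pair of libraries lay within 1.3-fold of each other for 38 of these genes, and the remaining 25 were graded over the libraries. Replicate 3 was the highest library for 42 of them and replicate 1 for 21.

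The 25 members high in replicate 3 had median levels of 11.5, 9.87 and 21.2 CPM in replicates 1, 2 and 3. Replicates 1 and 2 differed by less than 1.3-fold in 9 of them. The order replicate 2, replicate 1, replicate 3 held for 20 of the 25, so the classes shared their ordering of libraries. They differed in whether replicate 1 lay nearer to replicate 3 or to replicate 2.

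The members' deviations were summarised by their main axis. On the log2 scale, each gene was centred on its own mean over the 3 libraries. The first principal axis of the members held 75.7% of their spread. Eligible genes have a first axis of their own, computed separately, which held 61.6% of theirs. The 2 axes were not compared. With 3 centred libraries this share cannot be under 50%, and the members were chosen by the spread of the same libraries. The weights of the members' axis were 0.16 for replicate 1, -0.77 for replicate 2 and 0.62 for replicate 3. It thus set replicate 2 against replicate 3, with replicate 1 between. On this axis 95 members lay on the side of higher replicate 3 and 12 on the opposite side. The median deviation of members was 0.17, -0.63 and 0.50 in replicates 1, 2 and 3, against 0.05, -0.00 and -0.04 for eligible genes. Each gene has only 2 free directions here, so no correlation between genes was computed.

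**Figure D2:**
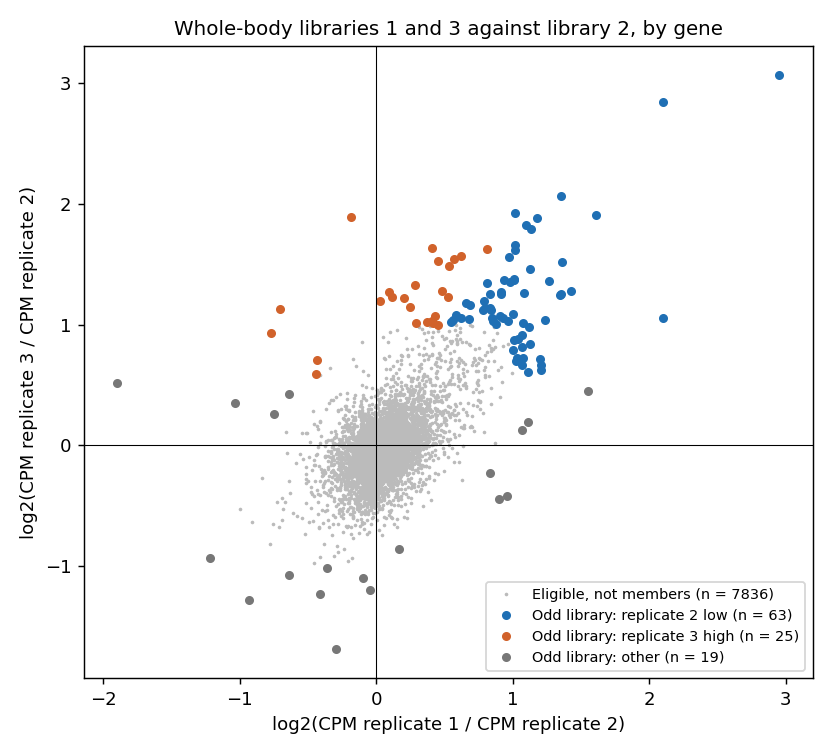
Log2 ratio of replicate 3 to replicate 2 (vertical) against that of replicate 1 to replicate 2 (horizontal) for 7836 eligible genes that are not members (grey dots) and the members (coloured by odd library). Both axes share replicate 2, so the slant of the cloud is partly built in; most members lie to the upper right, where replicate 2 is lowest.

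Genes short of the 2-fold limit followed the same order in part. Among the 344 eligible genes with a spread of 1.5 to 2, replicate 2 was lowest for 193 (56.1%) and replicate 3 highest for 137 (39.8%), and 112 (32.6%) had the order 2, 1, 3. Among the 755 genes with a spread of 1.3 to 1.5, the shares were 33.1%, 23.7% and 15.9%. Among the 6737 genes under 1.3-fold they were 29.5%, 19.2% and 11.4%. At 2 to 2.5-fold (68 members) they were 80.9%, 58.8% and 52.9%, and at 2.5-fold or more (39 members) 79.5%, 79.5% and 66.7%.

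**Figure D3:**
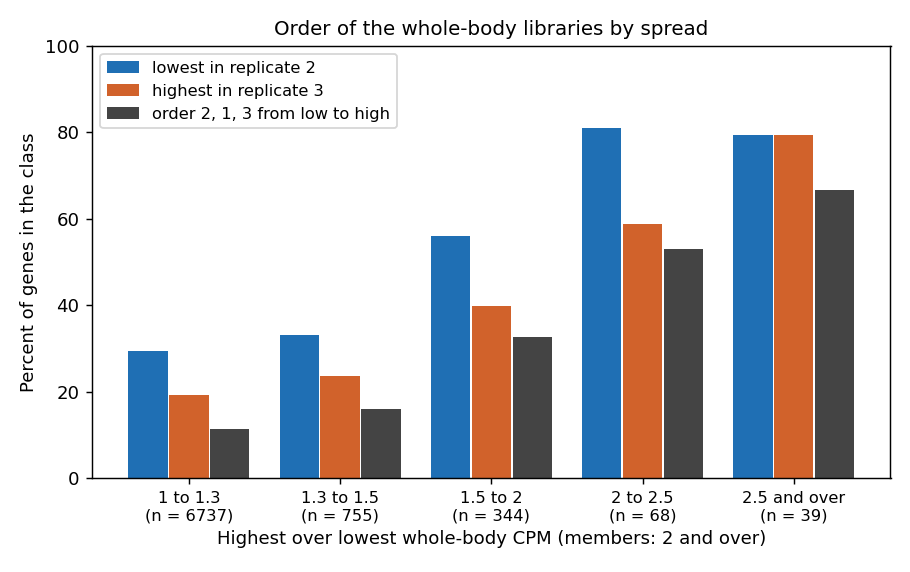
Percent of eligible genes with their lowest value in replicate 2, their highest in replicate 3, or the full order 2, 1, 3 (bars), by the ratio of highest to lowest whole-body CPM. The share with the order 2, 1, 3 was 11.4% in the class of least spread and 66.7% in the class of greatest spread.

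Among members, the low replicate 2 was seen at every level and was least frequent at 5 to 10 CPM. The share of eligible genes lowest in replicate 2 was not computed by level, and the upper classes hold few members. Replicate 2 was the lowest library for 23 of the 37 members at 5 to 10 CPM (62.2%), 22 of 27 at 10 to 20 CPM (81.5%) and 23 of 24 at 20 to 50 CPM (95.8%). It was lowest for all 8 members at 50 to 100 CPM and for 10 of the 11 at 100 CPM or more. In the edgeR quasi-likelihood fit of replicate 2 against the other whole-body libraries over 11448 genes, 43 of the 107 members were called lower at an adjusted p under 0.05, where 1.12% of all genes were. In that direction the members were 33.6% of the 128 calls. The members called in either direction, 44, became 22 with the DESeq2 Wald test, 74 with library size alone and 84 with all genes of at least 1 count. The share of all genes called with these alternatives is not given here, so the moves are not read as a result about the members. Each fit had only 2 libraries to show spread (1 residual degree of freedom), and its error estimates drew on all genes tested. Nothing is read from the members' share, because the rule chose them by the spread of these libraries.

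Calls in the other directions were few. A single member, tetur07g04400, was called higher in replicate 2, where 0.105% of all genes were. A single member, tetur27g00350, was called higher in replicate 3, where 0.00874% of genes were, that is, only this one. That call was lost, leaving 0, with library size alone, with DESeq2 size factors and with either other filter. For replicate 3 lower and for replicate 1 in either direction, 0 members and 0% of genes were called. The DESeq2 Wald test called more members for replicates 1 and 3. The share of all genes that it called is not given here.

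Other features also differed between the whole-body libraries. The top 10 genes by reads made up 17.9%, 21.1% and 22.4% of replicates 1, 2 and 3, and reads were counted for 14969, 14458 and 14407 genes. Both rank replicate 2 between the other whole-body libraries. Depth likewise ranks replicate 2 in the middle. The part of these features in the members' pattern was not tested.

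The most abundant member low in replicate 2 was tetur04g06000, on scaffold 4. It stood at 360, 185 and 379 CPM in whole-body replicates 1, 2 and 3 and at 38.6 CPM in the proterosoma library. Replicate 2 lay at about the same distance below both other pools, and the front body was below all 3. The highest pool was 2.05 times the lowest, with a counting interval of 1.95 to 2.15.

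Considering members that averaged 20 CPM or more in whole bodies, the one farthest below the other pools in replicate 2 was tetur282g00020 on scaffold 282. Its levels were 352, 138 and 328 CPM in replicates 1, 2 and 3 and 31.1 CPM in the front body. Replicates 1 and 3 were close to each other, and replicate 2 lay 1.253 log2 units below the nearer of them. The spread of 2.55 had a counting interval of 2.42 to 2.69.

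Of the members high in replicate 3, tetur27g00350 was the most abundant. It reached 170 CPM there, against 78.4 and 72.4 CPM in replicates 1 and 2, and 57.1 CPM in the proterosoma library. Replicates 1 and 2 were close, and replicate 3 was 2.34 times the lowest (2.16 to 2.54). Of those averaging 20 CPM or more, the one farthest above the other pools in replicate 3 was tetur01g14180, at 40.2, 30.3 and 93.7 CPM in replicates 1, 2 and 3 and 9.46 CPM in the front body. Here replicate 3 was 3.10 times the lowest pool (2.75 to 3.49), and the front body was again below every whole-body library.

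Replicate 1 was the odd library for 10 members. Of these, only members high in replicate 1 averaged 20 CPM or more, and the one farthest from the other pools was tetur22g02040, at 248 CPM in replicate 1 against 84.7 and 116 CPM in replicates 2 and 3, a spread of 2.93 (2.74 to 3.13). Its proterosoma level of 138 CPM lay inside the whole-body range. A second member high in replicate 1, tetur04g07050, had 95.7, 45.6 and 49.8 CPM in replicates 1, 2 and 3 and 28.7 CPM in the front body. The most abundant member low in replicate 1 was tetur29g00340, at 8.92, 13.9 and 18.7 CPM in replicates 1, 2 and 3. Below that level, and named after its values were seen, tetur01g04620 had 1.56, 5.83 and 8.34 CPM, a spread of 5.33 (3.62 to 8.01) from 37, 72 and 97 reads.

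Members that ran against the main order were led by tetur20g00200, the most abundant member of all. It stood at 556, 683 and 212 CPM in replicates 1, 2 and 3, so that replicate 3 was the low pool, and at 3860 CPM in the proterosoma library. Its spread was 3.22 (3.08 to 3.37), and its ratio of 7.98 placed it just inside the upper limit of the rule. The next most abundant gene of this class, tetur40g00100, showed the same arrangement at a lower level, with 8.03, 10.7 and 4.56 CPM in whole bodies and 59.8 CPM in the front body. For tetur07g04400, the most abundant member that was high in replicate 2, the levels were 10.7, 20.5 and 8.43 CPM in replicates 1, 2 and 3 and 14.8 CPM in the proterosoma library.

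Most members were lower in the front body than in whole bodies. The proterosoma value lay below all 3 whole-body values for 79 members (73.8%), above all 3 for 14 and inside their range for 14. Among eligible genes the first share was 68.7%, the second 26% and the third 5.31%. A member's whole-body range is wide by choice, which makes a value inside it more likely. The rule limits the ratio to a window, so the ratio is described and not tested. Among genes past the level and spread limits, this window dropped 53 with a higher front-body ratio and 14 with a lower one. The shares given here thus hold inside the window, and not for every gene with such a spread.

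Inside the window, members also had lower ratios than eligible genes. Their median log2 ratio of proterosoma to whole body was -2.01, against -0.82 for the eligible genes. The window did not act alike on both sets. The ratio and abundance limits kept 7943 of the 9025 genes averaging 5 CPM or more. They kept 107 of the 174 with a 2-fold spread, leaving out 53 on the higher side and 14 on the lower. The contrasts below therefore hold inside the window only. A ratio of at most 0.5 was found in 75 members (70.1%) and in 44.9% of eligible genes, and a ratio of at most 0.25 in 54 members (50.5%) and 21.0% of eligible genes. At least 2-fold higher in the front body were 9 members (8.41%) and 11.5% of eligible genes. The lower ratio of members was seen in each class of level. At 5 to 10 CPM the median log2 ratio was -1.45 for members and -0.30 for eligible genes, and at 100 CPM or more it was -2.53 and -1.19.

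**Figure D4:**
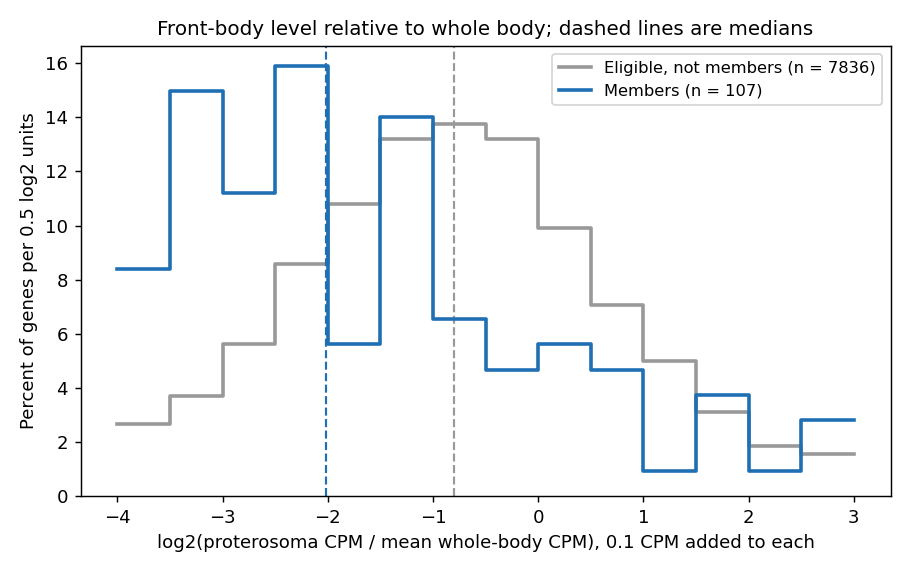
Share of genes per 0.5 log2 units of the ratio of proterosoma to mean whole-body CPM, for 107 members and 7836 eligible genes that are not members, with dashed lines at the medians. Members pile up toward the lower end of the window, with a median of -2.01.

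Scaling moved these positions. TMM scaling raised the log2 ratio by a median of 0.53, to a median of -1.50 for members and -0.28 for eligible genes. The ratio was under 1 for 87 members with library size alone and for 81 with TMM, so that 6 members changed direction, tetur22g02040 among them. With it the proterosoma value was below all whole-body values for 71 members (66.4%) and for 54.7% of eligible genes, and above all of them for 20 members (18.7%) and 39.5% of eligible genes.

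The edgeR test of the proterosoma library against whole bodies, with TMM scaling over 13278 genes, called 51 of the 107 members lower, where 40.4% of all genes were called. It called 13 members higher, where 41% of all genes were called. The other 43 members were not called at an adjusted p under 0.05. The median edgeR log2 fold was -1.48 for members and -0.03 for all genes tested. The wide spread of members between whole-body libraries enters the error of this test, and the ratio limits entered the choice of members, so nothing is read from these counts. In the authors' deposited table, 12 of the 107 members were higher and 56 lower at an adjusted p under 0.05, where 30.7% and 30.9% of the 15877 genes listed there were.

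Front-body level and odd library moved together in part. Members low in replicate 2 had a median ratio of 0.214, and for 49 of the 63 the front body was below every pool. Members high in replicate 3 had a median ratio of 0.241, with 22 of 25 below every pool. For the other 19 members the median ratio was 0.921, with 8 below every pool, 6 above and 5 inside the range. These classes also differed in level, with median whole-body means of 17.6, 13.7 and 7.76 CPM in the same order. The part of level in their ratios was not tested. Against replicate 2 alone, the lowest pool for most members, the proterosoma library was lower for 83 of the 107 members (77.6%) and for 71.4% of eligible genes. The median log2 ratio of proterosoma to replicate 2 was -1.28 for members and -0.80 for eligible genes. All these ratios share the whole-body libraries that chose the members.

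At the extremes of the ratio, for members averaging 20 CPM or more, tetur17g03400 was lowest in the front body. It had 1.47 CPM there against 31.1, 14.3 and 28.2 CPM in replicates 1, 2 and 3, a ratio of 0.0639. Its edgeR log2 fold of -3.49 had a standard error of 0.59, while the authors' deposited table lists -3.44 (error 0.50). Next was tetur07g00740, at 2.08 CPM in the front body against 41.1, 19.99 and 36.9 CPM. Both were lowest in replicate 2 among the whole-body pools.

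In the opposite direction, again at 20 CPM or more, tetur20g00200 had the highest ratio, with an edgeR log2 fold of 3.57 and a standard error of 0.52. For it the authors' deposited table lists 3.40 (error 0.80). At this level the next was tetur04g05970, at 55.3 CPM in the proterosoma library against 37.6, 16.4 and 26.997 CPM in replicates 1, 2 and 3, a ratio of 2.04. It too was lowest in replicate 2, so a low replicate 2 was not limited to genes that were low in the front body.

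Members were scattered over 37 of the 130 scaffolds that carried eligible genes, and 13 of the 37 held 1 member each. Scaffolds 1, 2 and 11 held 8 members each, of 715, 648 and 292 eligible genes. As a share of eligible genes, scaffold 11 stood at 2.74% and scaffold 1 at 1.12%, beside 1.35% over all scaffolds. Scaffold 31 had 4 members among 89 eligible genes (4.49%). Scaffold 13 had 0 members among 199. The order of identifiers was not checked against an annotation, and shares of this kind rest on few genes.

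No run of more than 2 adjacent members was found. There were 5 pairs of members next to each other in identifier order, so that 10 of the 107 members (9.35%) had a member beside them. Among the eligible genes that were not members, 72 (0.919%) had a member beside them. How reads of overlapping or near-identical neighbours were handled is not given in the sources used here, so counts of adjacent genes are not taken as independent.

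The pairs were named after their values were seen. The widest spread of all members was that of the pair on scaffold 66. Its first gene, tetur66g00060, had 5.20, 1.21 and 8.68 CPM in replicates 1, 2 and 3 and 15.6 CPM in the front body. Its neighbour tetur66g00070 had 17.5, 2.27 and 19.0 CPM, and 20.4 CPM in the front body. Both were far lower in replicate 2 than in the other pools, with spreads of 7.15 (4.14 to 13.3) and 8.39 (5.64 to 12.9). Replicate 2 held 15 and 28 reads of these genes. Both were above every whole-body pool in the proterosoma library, unlike most members.

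On scaffold 11 the pair tetur11g05720 and tetur11g05730 also combined a low replicate 2 with a front-body level near or above the pools. The first stood at 104, 58.8 and 129 CPM in replicates 1, 2 and 3 and at 127 CPM in the proterosoma library. The second stood at 23.8, 11.7 and 35.9 CPM and at 38.3 CPM. A member a few places before them, tetur11g05700, shared the low replicate 2 at 15.01, 6.23 and 15.99 CPM but had only 1.27 CPM in the front body.

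Pairs on scaffolds 2 and 17 were lower in the front body than in every pool. On scaffold 2, tetur02g13040 had 9.51, 3.72 and 15.6 CPM in replicates 1, 2 and 3 and 0.661 CPM in the front body, and tetur02g13050 had 36.3, 18.9 and 49.0 CPM and 3.30 CPM. On scaffold 17, tetur17g03390 had 10.6, 4.94 and 17.5 CPM and 2.64 CPM beside tetur17g03400, whose values are given above. In all 4 of these genes replicate 2 was the low pool.

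The pair on scaffold 9 was high in replicate 3 instead. Levels of tetur09g00540 were 10.4, 7.61 and 15.2 CPM, and those of tetur09g00550 were 3.64, 4.13 and 15.3 CPM, with 1.98 and 1.78 CPM in the front body. A further 2 members, tetur09g00480 and tetur09g00510, lay close before them, at 8.25, 4.13 and 8.77 CPM and at 6.30, 3.32 and 6.88 CPM. All 4 were below every whole-body pool in the proterosoma library, and this was the largest local group.

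Allowing up to 5 places between consecutive members gave 9 local groups with 21 members in all. Replicate 2 was the lowest whole-body library for 20 of the 21, the exception being tetur09g00550, beside 80.4% of all members. With the spread limit lowered to 1.5-fold, 451 genes qualified, of which 63 (14.0%) had another beside them, against 4.39% of the eligible genes under 1.5-fold. The runs of 3 adjacent genes then numbered 3, on scaffolds 2, 16 and 21, and none was longer. Replicate 2 was the lowest library for every gene in these 3 runs, although 2 of the 9 genes were higher in the front body than in any whole-body pool. Of all eligible genes with a spread of 1.5 to 2, 56.1% were lowest in replicate 2.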

How the data were processed

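RNA-seq counts per gene were analysed for 3 whole-body libraries and 1 proterosoma library. The deposited table gives, for each gene, the authors' raw counts of reads. The submitters' processing notes name the aligner STAR 2.5.0b, the counter HTSeq 0.6.0 and the test DESeq2 1.6.3. Build, annotation and strand setting are not given in the sources at hand. The authors' deposited table of their own comparison gives log2 fold changes with errors and adjusted p-values. Positive values there meant higher in the proterosoma library for 100% of genes with an absolute log2 fold of at least 1. Columns were matched by title and 0 were left unused.

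CPM was the count divided by the column total, times 1000000. Members, lists and limits were chosen with earlier results of these data known. edgeR 4.0.16 in R 4.3.3 (TMM, filterByExpr, quasi-likelihood F test, Benjamini-Hochberg adjustment over all genes tested) gave calls at an adjusted p under 0.05. Body part was the only term over all 4 libraries (2 residual degrees of freedom), which takes the single front-body library to vary as whole bodies do. Each whole-body library was also set against the other whole-body libraries. The standard error is the log2 fold divided by the square root of F. A count of 0 allows up to 3 reads, that is 0.127 to 0.258 CPM by library. Alternatives were other scalings, filters, levels and spreads, the DESeq2 1.42.0 Wald test and leaving out every whole-body library in turn. The scripts were tested on simulated data. Genes named were, for each odd library and direction, the member with the largest log2 distance from the middle library (if averaging 20 CPM or more) plus the most abundant one, and the 2 highest and 2 lowest ratios at that level. Pairs and local groups were named after their values were seen.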

Additional observations from a re-analysis of the deposited data

How the results depend on the processing

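Of 78 recomputed counts, 48 stayed within 1.5 times the main count. The 107 members became 43 and 19 with a mean of at least 20 and 50 CPM, 451 and 18 with a spread of at least 1.5-fold and 3-fold, and 23 to 77 when 1 whole-body library was left out: 77 without replicate 1, 23 without replicate 2 and 41 without replicate 3. With TMM scaling 93 of the 107 remained members, and with DESeq2 size factors 92. Members with replicate 2 as the odd library numbered 66, and 30, 12 and 11 at a mean of 20 CPM, a mean of 50 CPM and a spread of 3-fold. For replicate 3 the 31 became 11, 5 and 6, and for replicate 1 the 10 became 2, 2 and 1. These limits leave fewer genes by construction. Leaving out a library also takes away an end of the spread that chose the members. Replicate 2 was the lowest library for 86 of them and replicate 3 the highest for 71. The drops without these libraries are therefore no separate evidence. The 5 adjacent pairs became 1 and 0 at a mean of 20 and 50 CPM, 33 at a spread of 1.5-fold (chosen after seeing the data) and 0 to 3 without each whole-body library. Members called for replicate 2 numbered 44, and 74 with library size alone, 84 with all genes of at least 1 count and 22 with the DESeq2 Wald test. For replicate 3 the 1 call became 0 with library size alone, DESeq2 size factors and either filter, and 7 with the DESeq2 Wald test. For replicate 1 the DESeq2 Wald test called 1 in place of 0. The share of all genes called is not given for these alternatives, so nothing about the members in particular is read from the moves in calls. Their cause was not tested. The members called in the proterosoma library (64) numbered 56 to 91 without each whole-body library. Counts of members below all whole-body libraries in the proterosoma library and of the order 2, 1, 3 were recomputed with other scalings chosen after seeing the data and stayed within 1.5 times. No paired analysis was possible because the labels number the whole-body libraries alone and there is 1 proterosoma library. Dividing the whole-body libraries further would leave no residual degrees of freedom, so their comparisons were not refitted without a library.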
